A study of Homo sapiens with 6 samples.

Results

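The 10 genes described here are transcripts commonly read as a record of ERK signalling, namely DUSP4, DUSP5, DUSP6, SPRY2, SPRY4, SPRED1, ETV4, ETV5, EGR1 and IER3. They were taken by their symbol from the deposited count table, in which each had 1 row, so that all 10 were found among its 25445 rows and all 10 passed the filter on low counts that left 15957 rows. RNA came from MHCC-97H cells, an established line that was derived from a human hepatocellular carcinoma. Cells were kept for 16 h either with 10 μM of 6j, a compound made from sophoridine, a plant alkaloid (6j treated, 3 libraries) or with its solvent (non-treated, 3 libraries). All libraries came from this 1 line at 1 dose and 1 time, and nothing in the labels says whether replicates 1 to 3 were separate cultures, so the p-values measure only the spread between these libraries.

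ERK is the last kinase of a cascade that growth factor receptors start through RAS, RAF and MEK. Active ERK switches on the genes of its own inhibitors, so their mRNA is often measured as a readout of how strongly the cascade is running. The DUSP proteins remove phosphate from ERK and related kinases, Sprouty (SPRY) and SPRED proteins act higher up at the level of RAS and RAF, and ETV4, ETV5 and EGR1 are transcription factors that carry the signal to further genes. Several of these genes, EGR1 and IER3 among them, also respond to stress signals that do not pass through ERK.

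The libraries held 31533403 to 37919879 counts in non-treated and 35002336 to 38018349 counts in 6j treated cells, and the members ranged from 65 to 10052 counts in a library. The labelled cell type was compared with its markers. Of 12 liver markers, 9 had at most 9 counts in any library and 7 had 0 counts in every non-treated library, with ALB, AFP and APOA1 among these 7, whereas the epithelial keratins KRT8 and KRT18 were at 605 and 430 CPM in non-treated cells. Of 8 markers of other cells, the leukocyte markers PTPRC and CD3E had 0 counts throughout, while CD68 and COL1A1 were at 51.3 and 244 CPM. The summed liver markers, nearly all of it keratin, were at 905 to 1110 CPM in non-treated and 706 to 825 CPM in 6j treated cells, and the summed markers of other cells were at 256 to 320 and 256 to 315 CPM. Their part in the results below was not tested, and in such bulk libraries fewer cells expressing a gene cannot be told apart from less RNA per cell.

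Levels are given as CPM, counts-per-million values, with library sizes scaled by TMM factors. A gene was called differentially expressed at a Benjamini-Hochberg adjusted p under 0.05 over all rows in edgeR's quasi-likelihood test together with a fold change above 1.5. None of the 10 members was called in this test, against 3.60% of all rows tested. At an unadjusted p under 0.05 there were 4 members, DUSP4, DUSP5, EGR1 and IER3, against 26.2% of all rows. The same 4 were called, all of them higher in 6j treated cells, by DESeq2 (5.52% of the rows to which it gave an adjusted p) and by edgeR with a block for the replicate number (6.47% of all rows, and 4.01% in the higher direction). Libraries that share a replicate number shared part of their deviations, so the blocked values are given beside the others. In 5 of the 10 members, the 4 named and ETV5, the lowest 6j treated library lay above the highest non-treated library, against 16.0% of all rows, and none of the 10 had the groups apart in the opposite direction, against 15.8% of all rows. The median log2 fold change of the 10 was 0.24, while that of all rows tested was 0.00. The median of the 10 was 0.16 without 6j treated replicate 3, and 0.12 with the block and without replicate 3. Both the phosphatases and the ETV genes had members with groups apart and members with overlapping groups, and SPRY2, SPRY4 and SPRED1 all overlapped. Groups also overlapped in 10893 of the 15957 rows tested.

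**Figure D1:**
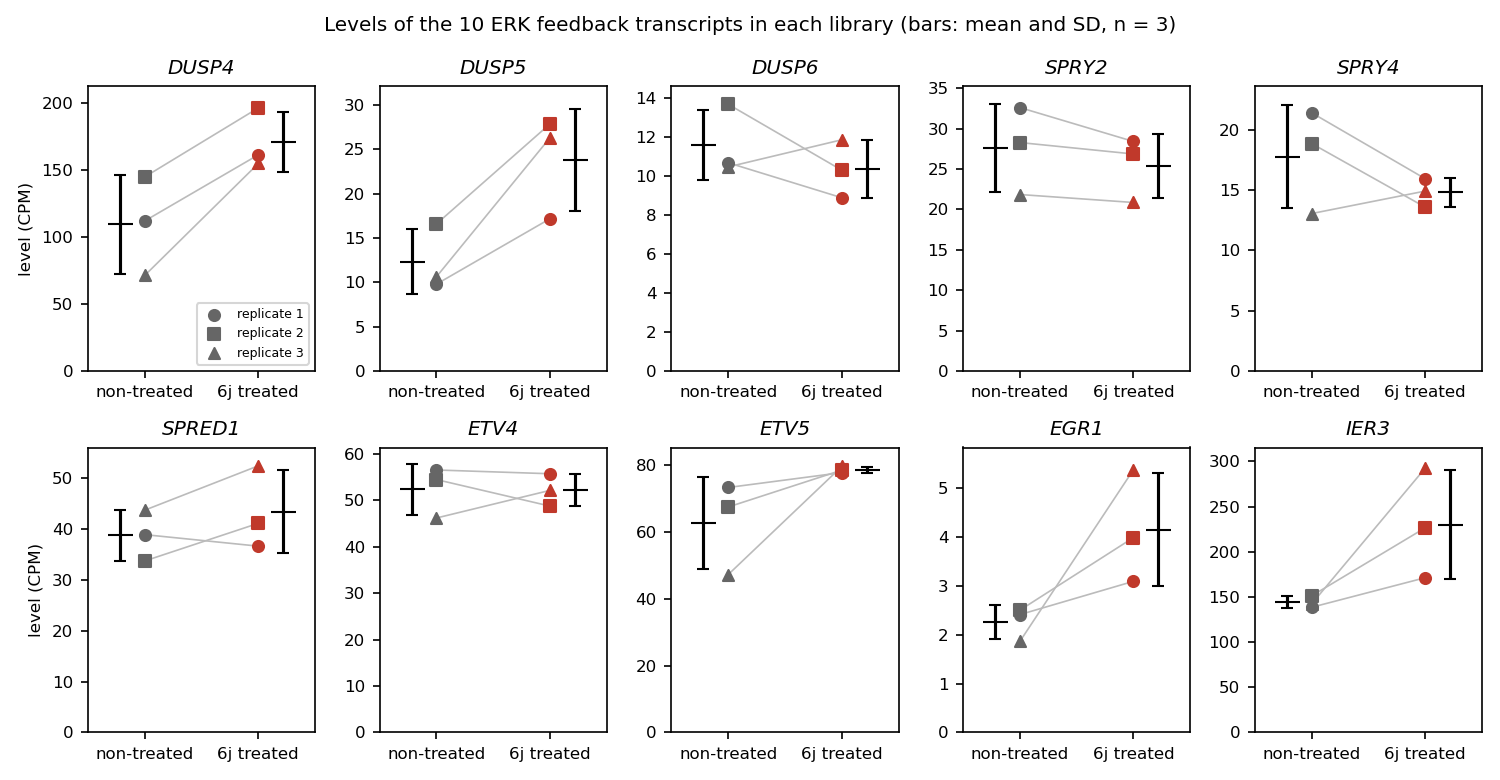
Level of each of the 10 transcripts in CPM (vertical axes, each from 0) in non-treated and 6j treated libraries. Symbols mark the replicate number, grey lines join libraries of the same number, and black bars give the mean and SD of 3 libraries. The red symbols lie above all grey ones for DUSP4, DUSP5, ETV5, EGR1 and IER3 and overlap with them for the other 5.

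Among the dual-specificity phosphatases, DUSP5, a nuclear phosphatase with a preference for ERK (chromosome 10, 110497838 to 110511544, plus strand, GRCh38), had the largest difference of all members. Its level was 9.79, 16.6 and 10.6 CPM (replicates 1, 2 and 3) without 6j and 17.2, 27.9 and 26.3 CPM with it. The lowest 6j treated library, replicate 1, was only just above the highest non-treated library, replicate 2, but every 6j treated library was well above the non-treated library of its own number. The mean went from 12.3 ± 3.71 to 23.8 ± 5.78 CPM (SD, n = 3 each), a 1.93-fold difference (log2 fold change 0.95, standard error 0.25, 95% confidence interval 0.38 to 1.52). The adjusted p was 0.0522 in edgeR, 0.00108 in DESeq2 and 0.000267 in edgeR with the replicate block. Without the block, DUSP5 was called when non-treated replicate 2 (log2 fold change 1.22) or 6j treated replicate 1 (1.14) was left out. With the block it was called whichever of the 3 replicate numbers was left out.

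DUSP4, which dephosphorylates ERK, JNK and p38 in the nucleus (chromosome 8, 29333064 to 29350668, minus strand), had the highest level per exon length of the 3 phosphatases. It was at 112, 145 and 71.3 CPM (replicates 1, 2 and 3) without 6j and at 161, 196 and 155 CPM with it. The non-treated libraries were widely spread, with replicate 3 far below the others, and all 6j treated libraries were above them. Without the block edgeR gave a log2 fold change of 0.64 ± 0.26 (standard error) at an adjusted p of 0.18, and with the block 0.69 ± 0.15 at an adjusted p of 0.0276. DESeq2 gave an adjusted p of 0.0117. The unblocked log2 fold change was 0.41, under 1.5-fold, without non-treated replicate 3 and 0.90 without non-treated replicate 2. The blocked call was lost without replicate 1 (adjusted p = 0.0567 in edgeR) and without replicate 3, where the log2 fold change was 0.48.

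DUSP6, a cytoplasmic phosphatase with a preference for ERK (chromosome 12, 89347232 to 89353271, minus strand), had overlapping groups, unlike DUSP4 and DUSP5. It was at 10.7, 13.7 and 10.5 CPM (replicates 1, 2 and 3) without 6j and at 8.90, 10.3 and 11.9 CPM with it. Replicates 1 and 2 were lower and replicate 3 higher in 6j treated cells, and the log2 fold change of −0.17 had a 95% confidence interval of −0.54 to 0.21 (adjusted p = 0.583 in edgeR, 0.432 with the replicate block). The interval takes in a moderately lower as well as a slightly higher level, and a difference within it was not detectable here. In the annotation 1875 exon bases of DUSP6 are shared with an antisense gene on the other strand that has no row in the table, and the strand setting of the counting is not given in the sources used here.

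The difference between paralogs was tested itself, as the log2 CPM of one gene minus that of the other within each library, over 4 pairs. DUSP5 and DUSP6 were level with each other in non-treated cells (difference 0.06 ± 0.20, SD, n = 3), and DUSP5 was 1.17 ± 0.24 log2 units above DUSP6 in 6j treated cells. This difference changed by 1.12, and by 1.07, 1.15 and 1.12 within replicates 1, 2 and 3, the closest match between replicate numbers of any of the pairs. The DUSP4 minus DUSP6 difference changed by 0.86, from 3.18 ± 0.36 to 4.04 ± 0.30 (SD, n = 3 each). In a two-sided exact permutation test both gave p = 0.1, the smallest value that 3 libraries against 3 allow, which was 0.133 after Benjamini-Hochberg adjustment over the 4 pairs, so that neither could pass a threshold of 0.05. For all 4 pairs this test permuted the libraries without regard to their replicate numbers.

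Sprouty proteins bind components of the receptor and RAS machinery and lower the signal that reaches RAF, and SPRED1 acts with the RAS GTPase activating protein neurofibromin. None of the 3 genes of this kind had its groups apart, and groups likewise overlapped in 10893 of the 15957 rows tested. SPRY2 (chromosome 13, 80335976 to 80340951, minus strand) was at 32.6, 28.3 and 21.8 CPM (replicates 1, 2 and 3) without 6j and at 28.4, 26.8 and 20.8 CPM with it. In both groups replicate 1 was the highest and replicate 3 the lowest. Its log2 fold change was −0.12 (95% confidence interval −0.50 to 0.26, adjusted p = 0.708 in edgeR, 0.383 with the replicate block).

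SPRY4 (chromosome 5, 142310427 to 142326455, minus strand) had the lowest log2 fold change of the 10 members, −0.26 (95% confidence interval −0.67 to 0.14, adjusted p = 0.399 in edgeR, 0.234 with the replicate block). It was at 21.4, 18.8 and 13.04 CPM (replicates 1, 2 and 3) without 6j and at 15.9, 13.6 and 14.9 CPM with it. Replicates 1 and 2 were lower in 6j treated than in non-treated cells, while replicate 3 was higher. With the block and without replicate 3, its log2 fold change was −0.45 (adjusted p = 0.0364 in edgeR), a fold below the threshold. It was −0.14 with the block and without replicate 1, and −0.12 without replicate 2.

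SPRED1 (chromosome 15, 38252326 to 38357249, plus strand) was at 38.9, 33.7 and 43.7 CPM (replicates 1, 2 and 3) without 6j and at 36.6, 41.1 and 52.4 CPM with it. Its log2 fold change was 0.16 (95% confidence interval −0.17 to 0.50, adjusted p = 0.542 in edgeR, 0.235 with the replicate block). The SPRY2 minus SPRY4 difference changed by 0.12, with values of 0.23, 0.40 and −0.26 in replicates 1, 2 and 3 (two-sided exact permutation test, p = 0.6, also 0.6 after adjustment), so the direction was not shared by the 3 replicate numbers.

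ETV4 and ETV5 encode closely related ETS family transcription factors of the PEA3 group. ETV4 (chromosome 17, 43527844 to 43579620, minus strand) was at 56.5, 54.5 and 46.2 CPM (replicates 1, 2 and 3) without 6j and at 55.7, 48.7 and 52.1 CPM with it. The 2 means were 52.4 ± 5.47 and 52.2 ± 3.49 CPM (SD, n = 3 each), and the log2 fold change of −0.01 had the narrowest interval of the 10 members, from −0.23 to 0.22 (adjusted p = 0.982 in edgeR, 0.987 with the replicate block); with total counts as the only scaling the sign was the opposite, at 0.01.

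ETV5 (chromosome 3, 186046308 to 186110318, minus strand) was at 73.4, 67.6 and 47.3 CPM (replicates 1, 2 and 3) without 6j and at 77.9, 78.6 and 79.7 CPM with it. The 6j treated libraries were nearly equal and stood just above the highest non-treated one, whereas the non-treated libraries were widely spread. ETV5 was not called (log2 fold change 0.33, 95% confidence interval −0.01 to 0.66, adjusted p = 0.199 in edgeR), nor with the replicate block (log2 fold change 0.35, adjusted p = 0.146). Its log2 fold change was 0.16 without non-treated replicate 3, and 0.15 with the block and without replicate 3. The ETV4 minus ETV5 difference changed by −0.35, in the same direction in all 3 replicate numbers, with −0.11, −0.38 and −0.58 in replicates 1, 2 and 3 (two-sided exact permutation test, p = 0.1, 0.133 after adjustment). ETV5 shares 164 exon bases on the same strand with DGKG and ETV4 shares 68 on the opposite strand with DHX8, so a small part of their reads could have been assigned otherwise.

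EGR1 is an immediate early zinc finger transcription factor whose promoter is a classical target of the serum response factor SRF and its ERK-activated partners of the ELK family. SRF binds the CArG box, a run of A and T between CC and GG. Promoter windows of 5 members were found in the RefSeq table (GRCh38.p14), and 2 are shown here because they hold the only motif matches among these windows, EGR1, which was among the 4 higher members, and SPRY2, which was not. Each is the stretch of 250 bases before the start, 5′ to 3′ on the strand of the gene, EGR1 at chr5:138465229-138465478 (plus strand) and SPRY2 at chr13:80341127-80341376 (minus strand). Capitals mark CArG boxes in EGR1 and the ETS core CCGGAA in SPRY2.
EGR1: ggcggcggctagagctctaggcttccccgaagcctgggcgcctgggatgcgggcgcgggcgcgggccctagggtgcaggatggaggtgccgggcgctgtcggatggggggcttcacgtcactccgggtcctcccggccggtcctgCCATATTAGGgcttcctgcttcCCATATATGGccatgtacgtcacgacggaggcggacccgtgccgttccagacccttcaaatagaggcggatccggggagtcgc
SPRY2: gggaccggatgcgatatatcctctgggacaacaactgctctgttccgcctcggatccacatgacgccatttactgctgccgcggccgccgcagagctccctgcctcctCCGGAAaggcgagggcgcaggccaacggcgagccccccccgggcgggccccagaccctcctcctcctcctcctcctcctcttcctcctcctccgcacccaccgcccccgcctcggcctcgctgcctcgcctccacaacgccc

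The EGR1 window held 2 CArG boxes, CCATATTAGG and CCATATATGG. Of 35116 windows of the same length in the table, 1.16% held at least 1 CArG box and 0.0313% held 2 or more. The SPRY2 window held 1 CCGGAA, as did 14.5% of all windows, and no CArG box. No other member window held any of the 6 motifs searched on both strands, which were the CArG box, CCGGAA, the AP-1 site TGANTCA (6.57% of all windows), the cAMP response element TGACGTCA (1.65%), TGATGCAA (0.772%), a sequence bound by ATF4 with C/EBP partners, and the EGR1 site GCGTGGGCG (0.72%). The other windows were 1 each of DUSP6, SPRY4 and SPRED1 and 2 further ones of SPRY2. These 5 windows lie inside the gene spans of the annotation used for the coordinates here, and only those of EGR1 and the SPRY2 window shown lie outside. The matches are of letters and are not measured binding.

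EGR1 (chromosome 5, 138465490 to 138469315, plus strand) had the lowest level of the members per exon length. It was at 2.42, 2.51 and 1.87 CPM (replicates 1, 2 and 3) without 6j and at 3.10, 3.99 and 5.39 CPM with it, which stand for 65 to 91 and 119 to 185 counts. All 6j treated libraries were above all non-treated ones, and the largest difference was in replicate 3, where the lowest non-treated and the highest 6j treated value met. The 1.84-fold difference (log2 fold change 0.88, standard error 0.27, 95% confidence interval 0.26 to 1.49) had an adjusted p of 0.0768 in edgeR, 0.0396 in DESeq2 and 0.0334 with the replicate block. The blocked call was lost when any 1 of the replicate numbers was left out, with a log2 fold change of 0.51 without replicate 3.

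IER3, an immediate early gene whose product was described both as a substrate of ERK and as a factor that affects cell survival (chromosome 6, 30743199 to 30744554, minus strand), was at 139, 151 and 142 CPM (replicates 1, 2 and 3) without 6j and at 171, 227 and 293 CPM with it. Relative to their mean, its non-treated libraries were the tightest among the 5 members whose groups were apart, and its 6j treated libraries were spread widely. The mean went from 144 ± 6.503 to 230 ± 60.8 CPM (SD, n = 3 each), a 1.598-fold difference (log2 fold change 0.68, standard error 0.17, 95% confidence interval 0.28 to 1.08). The adjusted p of 0.0504 in edgeR lay just beyond the threshold, and it was 0.000629 in DESeq2 and 0.0453 with the replicate block. Without 6j treated replicate 1, IER3 was called without a block as well (log2 fold change 0.85, adjusted p = 0.00863 in edgeR). It was not called with any of the other 5 libraries left out (adjusted p = 0.0507 to 0.171), and its log2 fold change was 0.47 without 6j treated replicate 3. The blocked call was lost without replicate 2 (adjusted p = 0.202 in edgeR) and without replicate 3, where the log2 fold change was 0.44. IER3 shares 359 exon bases with its antisense gene IER3-AS1, which has no row in the table.

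**Figure D2:**
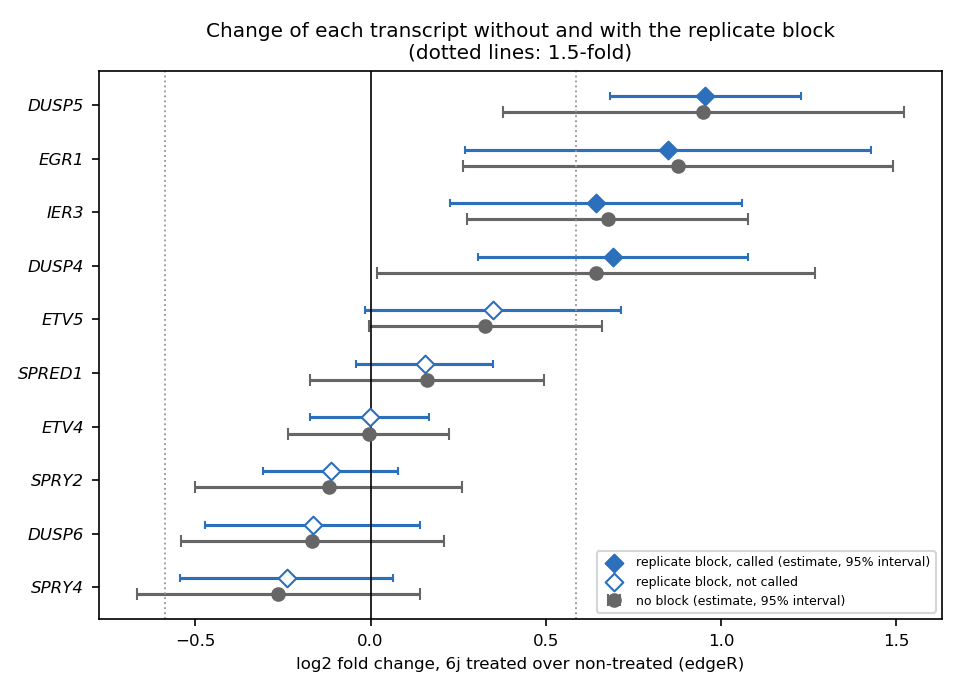
Log2 fold change of each transcript (horizontal axis) from edgeR without a block (grey circles) and with a block for the replicate number (blue diamonds, filled where called), with 95% confidence intervals; dotted lines mark 1.5-fold. The block left the estimates in place, at 0.95 and 0.95 for DUSP5 and 0.64 and 0.69 for DUSP4, and DUSP4, DUSP5, EGR1 and IER3 were called with it.

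The change was uneven between replicate numbers. Taken as the log2 CPM of a 6j treated library minus that of the non-treated library of the same number, it was highest in replicate 3 for 9 of the 10 members, SPRED1 being the exception, whereas over all rows tested replicate 3 had the highest change in 32.7%. For DUSP4 the changes were 0.53, 0.44 and 1.12 in replicates 1, 2 and 3, for DUSP5 0.81, 0.75 and 1.30, for EGR1 0.35, 0.66 and 1.501 and for IER3 0.31, 0.58 and 1.04. ETV5 had 0.09, 0.22 and 0.75. The same 5 genes were higher in all 3 replicate numbers, which held for 28.4% of all rows. DUSP6, SPRY4 and ETV4 were lower in replicates 1 and 2 and higher in replicate 3, with values of −0.26, −0.41 and 0.18 for DUSP6 and −0.42, −0.47 and 0.19 for SPRY4. Non-treated replicate 3 was the lowest library of its group for 7 of the 10 members, against 37.3% of all rows. With replicate 3 left out, the blocked test called DUSP5 alone (log2 fold change 0.78, adjusted p = 0.00309 in edgeR). It called DUSP5 and IER3 without replicate 1 and DUSP4 and DUSP5 without replicate 2.

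**Figure D3:**
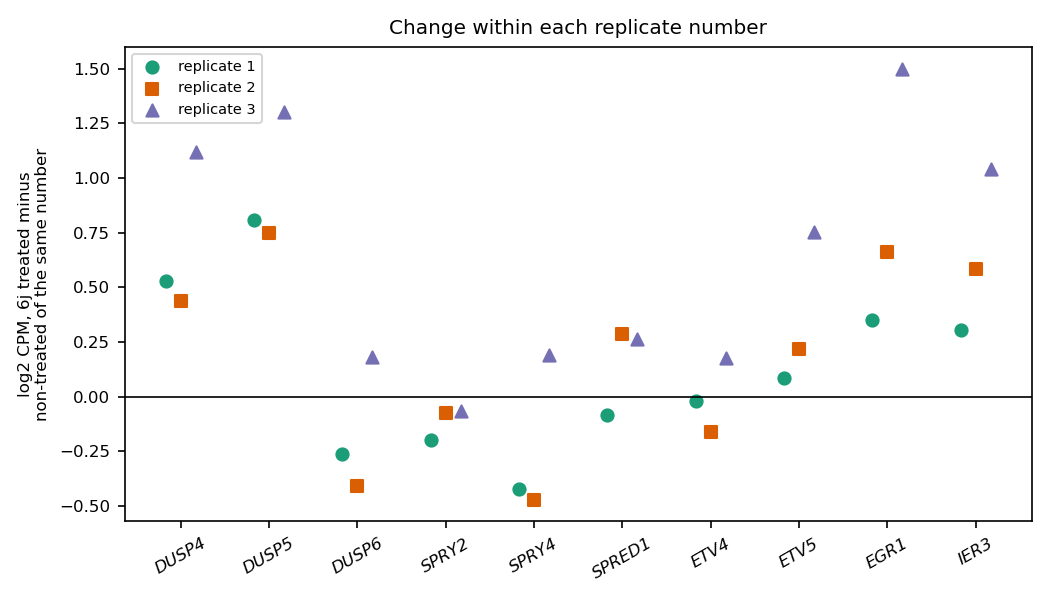
Log2 CPM of each 6j treated library minus that of the non-treated library of the same replicate number (vertical axis) for the 10 transcripts, with 1 symbol for each replicate number. Replicate 3 (triangles) is the highest for all but SPRED1, and DUSP4, DUSP5, ETV5, EGR1 and IER3 are above 0 in all 3 numbers.

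Levels of different genes were compared only per length, as CPM per kb of annotated exon. In non-treated cells IER3 was by far the highest, at 106 ± 4.80 CPM per kb (SD, n = 3), followed by DUSP4 (15.1 ± 5.08), ETV4 (14.5 ± 1.52), ETV5 (10.8 ± 2.36), SPRY2 (9.07 ± 1.78), DUSP5 (4.72 ± 1.42), SPRED1 (4.69 ± 0.604), SPRY4 (2.70 ± 0.652), DUSP6 (2.51 ± 0.389) and EGR1 (0.721 ± 0.110). The ranges over libraries overlapped between DUSP4 and ETV4, ETV5 and SPRY2, DUSP5 and SPRED1, and SPRY4 and DUSP6, so that the order within these neighbours was not resolved. The DUSP4 range, which began at 9.82 CPM per kb, also overlapped with those of ETV5 (up to 12.65) and SPRY2 (up to 10.73). The order of DUSP4 against these 2 was not resolved either. In 6j treated cells the order was the same except that DUSP5 (9.10 ± 2.21 CPM per kb) stood before SPRY2 (8.35 ± 1.31), with overlapping ranges, that DUSP4 (23.5 ± 3.07) no longer overlapped with ETV4 (14.5 ± 0.967), and that the ranges of ETV4 and ETV5 (13.6 ± 0.160) now overlapped, so that their order was not resolved. SPRED1 (5.25 ± 0.984) and SPRY4 (2.25 ± 0.180) followed, and SPRY4 again overlapped with DUSP6 (2.24 ± 0.321). EGR1 stayed the lowest, at 1.33 ± 0.368 CPM per kb.

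The other genes of the pathway were described from 6 lists by role. Among 13 growth factor receptors tested of 15, 1 was called, FGFR3, which fell from 24.1 ± 4.44 to 12.7 ± 3.30 CPM (SD, n = 3 each; log2 fold change −0.92, standard error 0.21, adjusted p = 0.033 in edgeR). Without the block, the call of FGFR3 was lost without non-treated replicate 1 or 3 or 6j treated replicate 2 or 3. FGFR3 was also called in DESeq2 (adjusted p = 0.000437) and with the replicate block (log2 fold change −0.94, adjusted p = 0.00021 in edgeR). The blocked call was kept whichever replicate number was left out (adjusted p = 0.00336 to 0.00779 in edgeR). The median of the receptors was −0.10, and the 2 receptors with the highest levels per exon length in non-treated cells, EGFR and MET, were at log2 fold changes of 0.22 and 0.09 and were not called (adjusted p = 0.57 and 0.676 in edgeR; chosen after their values were seen).

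Among 13 ligands tested of 15, 2 were called, both higher, and the median was 0.23. VEGFA, the angiogenic growth factor, rose from 218 ± 23.2 to 514 ± 185 CPM (SD, n = 3 each; log2 fold change 1.24, standard error 0.26, adjusted p = 0.0393 in edgeR), but missed the threshold when any 1 non-treated library or 6j treated replicate 2 was left out, and with no filter on low counts (adjusted p = 0.0909). The other was FGF21, a stress-induced hormone that acts with the co-receptor KLB (0.104 ± 0.0949 and 2.23 ± 1.03 CPM, SD, n = 3 each; adjusted p = 0.0116 in edgeR). Without the block, FGF21 was not called without 6j treated replicate 2 (adjusted p = 0.0686 in edgeR). With the replicate block both ligands were called (adjusted p = 0.0206 for VEGFA and 0.000453 for FGF21 in edgeR). The blocked call of VEGFA was lost without replicate 2 (adjusted p = 0.144 in edgeR), and that of FGF21 was kept whichever replicate number was left out. None of the 7 EGF family ligands of the list was called (EGF, AREG, EREG, HBEGF, TGFA, BTC and NRG1, described after their values were seen), with log2 fold changes from −0.05 for EGF to 0.31 for EREG, whose adjusted p was 0.252 in edgeR and 0.103 with the block.

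Of 26 genes tested of 27 in the RAS, RAF, MEK and ERK cascade itself, none was called in edgeR, with or without the replicate block, or in DESeq2. An adjusted p under 0.05 in edgeR at a fold below the threshold was found for 2 of the 26 without the block, against 9.16% of all rows at any fold, and for 9 of the 26 with it, against 26.9% of all rows. The 2 were RPS6KA1, an ERK-activated kinase gene (64.1 ± 2.66 and 48.4 ± 2.32 CPM, SD, n = 3 each; log2 fold change −0.41, adjusted p = 0.019 in edgeR), and SOS1, which loads RAS with GTP (87.2 ± 3.85 and 118 ± 15.4 CPM; log2 fold change 0.44, adjusted p = 0.0337). With each library left out, the unblocked adjusted p of RPS6KA1 was 0.0277 to 0.0814 in edgeR, and that of SOS1 was 0.0111 to 0.145. The median of the cascade genes was 0.07, with values from −0.41 to 0.44.

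Among 22 further negative regulators, all of them tested, 1 was called in edgeR, DUSP2, an inducible nuclear phosphatase gene. It was at 45.7, 31.8 and 53.2 CPM (replicates 1, 2 and 3) without 6j and at 16.6, 7.01 and 10.98 CPM with it, a fall opposite in sign to DUSP4 and DUSP5 (log2 fold change −1.92, standard error 0.35, adjusted p = 0.0283 in edgeR). Without the block, the call of DUSP2 was lost without non-treated replicate 1 or 3 or 6j treated replicate 2 or 3. It was also lost with no filter on low counts (adjusted p = 0.0675 in edgeR). DUSP2 was called in DESeq2 (adjusted p = 5.37e-11) and with the block (log2 fold change −1.96, adjusted p = 0.000348 in edgeR). The blocked call of DUSP2 was kept whichever replicate number was left out (adjusted p = 0.000423 to 0.0103 in edgeR). With the replicate block 4 of the 22 were called, against 6.47% of all rows, DUSP2 and, chosen after their values were seen, DUSP8 (log2 fold change 0.60) and ERRFI1 (1.25) as higher and DUSP9 (−0.92) as lower. The blocked call of DUSP8 was lost without replicate 3, that of DUSP9 without replicate 1 and that of ERRFI1 without replicate 2. Without the block the log2 fold change of ERRFI1 was 1.38, and 0.76 once 6j treated replicate 3 was left out. Its adjusted p was 0.246 in edgeR without the block and 0.107 in DESeq2. The ERRFI1 groups overlapped, at up to 41.8 CPM without 6j and from 35.1 CPM with it. An adjusted p under 0.05 in edgeR at any fold was found for 2 of the 22 without the block, against 9.16% of all rows. With the block there were 8, against 26.9% of all rows. Besides DUSP2 the unblocked test gave DUSP1, named after its values were seen. DUSP1 was higher in 6j treated cells at a fold below the threshold (140 ± 23.8 and 200 ± 16.7 CPM, SD, n = 3 each; log2 fold change 0.52, adjusted p = 0.0359 in edgeR). The median of the list was 0.06.

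Among 19 further ERK target genes tested of 24, JUNB was called in edgeR. This AP-1 gene fell from 141 ± 7.97 to 90.1 ± 13.7 CPM (SD, n = 3 each; log2 fold change −0.65, standard error 0.11, adjusted p = 0.0121), and was not called once non-treated replicate 1 or 6j treated replicate 2 was left out. With the replicate block 3 of the 19 were called, against 6.47% of all rows, JUNB as lower and, chosen after their values were seen, JUN (0.94) and FOSB (1.88) as higher. The blocked call of FOSB was lost without replicate 1 or 3, that of JUNB without replicate 2, and that of JUN in none of the 3 cases. Without the block the log2 fold change of FOSB was 2.20, and 1.21 once 6j treated replicate 3 was left out. At any fold, 2 of the 19 had an adjusted p under 0.05 in edgeR without the block, against 9.16% of all rows. These were JUNB and, named after its values were seen, CCND1, lower at a fold below the threshold (log2 fold change −0.36, adjusted p = 0.0307). With the block there were 11, against 26.9% of all rows. Lower among them were JUNB, CCND1 and, also named after their values were seen, MYC and PLAUR, and the others were higher. The median of the list was 0.08. Of the 11 transcription factors that act on such targets, all of them tested, none was called without or with the block, and the smallest adjusted p-values were those of CIC, a repressor of ETV4 and ETV5 that ERK inactivates (log2 fold change 0.32, adjusted p = 0.04 in edgeR), and ELK4, a partner of SRF (0.29, 0.0961). With each library left out, the unblocked adjusted p of CIC was 0.0312 to 0.166 in edgeR. Over the 6 lists, the share of genes called without the block was between 0% and 15.4%, against 3.60% of all rows, in lists of 11 to 26 genes, and the highest share stands for 2 of the 13 ligands.

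**Figure D4:**
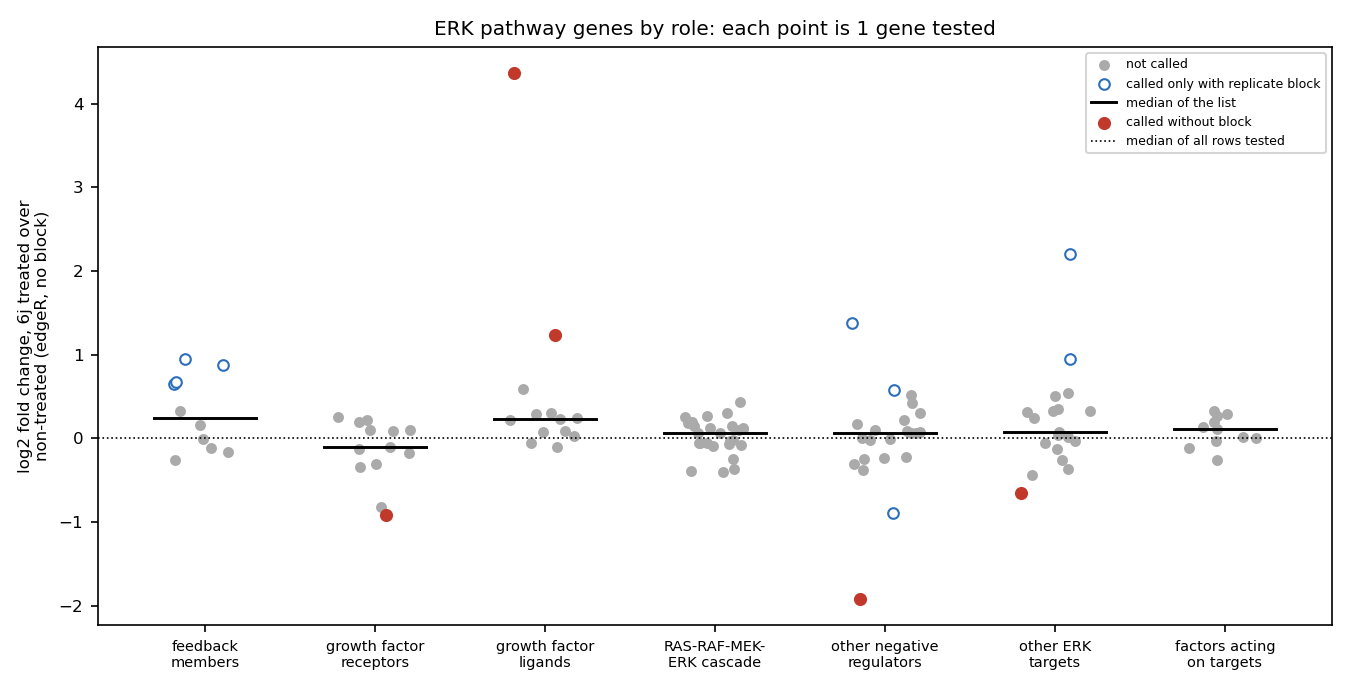
Log2 fold change in edgeR without a block (vertical axis) of each gene tested, by role in the pathway; red points were called without a block, open blue points only with the replicate block, black lines are list medians and the dotted line is the median of all rows tested. The feedback members have 4 open blue points, all above 0, while DUSP2, FGFR3 and JUNB are red points below 0.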

How the data were processed

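RNA from 3 non-treated and 3 6j treated MHCC-97H libraries was selected with oligo(dT) and sequenced. The authors deposited raw counts per gene, as whole numbers without normalization, with 1 column per library. The submitters' processing notes name HISAT2, StringTie and GRCh38. Versions, annotation, counting program and strand setting are not given in the sources used here, and values of 1 were rarer than values of 2 (175 against 557 rows in non-treated replicate 1), so that some counts may be rounded estimates. All 6 columns were used.

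TMM factors and a robust quasi-likelihood fit were computed in edgeR 4.0.16 (R 4.3.3 with limma 3.58.1) on the 15957 rows that filterByExpr kept, with p-values adjusted over all of them. Standard errors came from the F statistic, and log2 CPM used a prior count of 2. DESeq2 1.42.0 was an alternative, and was the tool of the study. Coordinates and exon lengths came from GENCODE version 29 (GRCh38), in which all members were found by Ensembl identifier. Of the steps, edgeR without and with the block and DESeq2 were tested on simulated counts. These counts held no effect of the replicate number, so the gain from the block was not tested. Intervals cover the spread between libraries, and 3 per group limit their precision.

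Deviations from the group means were correlated between libraries with equal replicate numbers (correlations over 15957 rows of 0.171, 0.18 and 0.312, against −0.231 to 0.0795 for different numbers), so the numbers were taken to pair the libraries. These correlations are not independent of each other, because each group was centred on its own mean. They also come from the same counts as the blocked test. What a number stands for is not in the labels.

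The members and the lists were chosen with earlier results of these data known. Named beside the members were, in each list of general knowledge, the called genes (up to 6) or else the 2 with the smallest adjusted p. Genes outside this rule are marked. Promoter windows of DUSP4, DUSP5, ETV4, ETV5 and IER3 were not used here.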

Additional observations from a re-analysis of the deposited data

How the results depend on the processing

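The number of members called depended on the test. It was 0 in edgeR without a block, 0 with RLE normalization and without a filter on low counts, 1 (IER3) with total counts only, 2 (DUSP5 and IER3) with a filter of 1 CPM in 3 libraries, 4 at an unadjusted p with the fold threshold, 4 in DESeq2 and 4 with the replicate block. It ranged from 0 to 2 with each library left out. With the block and 1 replicate number left out, an alternative added after the data had been seen, it was 2 without replicate 1, 2 without replicate 2 and 1 without replicate 3, where 2 libraries a group remain. Over all rows 574 genes were called, 1462 without the fold threshold, 1136 at an unadjusted p, 1033 with the replicate block, 186 to 772 with each library left out (186 without non-treated replicate 1, 193 without 6j treated replicate 2, 379 without non-treated replicate 3), and 1049, 705 and 867 with the block and without replicate 1, 2 or 3. The cause of these differences was not tested.

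Of 150 alternative values of the members' log2 fold changes, 123 kept direction and side of the threshold, 19 passed it and 8 changed sign. The sign changes were all near 0, for SPRY2 (−0.26 to 0.019 with each library left out) and for ETV4 (−0.088 to 0.053), which was 0.010 with total counts only, 0.0061 with the block and without replicate 1 and 0.078 with the block and without replicate 2. The 4 members higher with the block, and ETV5, were higher under every alternative run. So was SPRED1 (log2 fold change 0.0039 to 0.27), while DUSP6 (−0.34 to −0.03) and SPRY4 (−0.45 to −0.11) were lower under every one. The 5 members with groups apart stayed 5 under RLE and total counts.

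With each library left out, called genes ranged from 0 to 1 for receptors, 0 to 2 for ligands, 0 to 2 for other negative regulators (2 in DESeq2, 4 with the replicate block) and 0 to 3 for other targets (3 in DESeq2, 3 with the block). The paralog differences kept their sign under a prior count of 0.5 and with each library left out, where the exact permutation test cannot reach 0.05.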
